A study of Saccharomyces cerevisiae with 6 samples.

Results

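The genes described here encode the proton pumps of the yeast plasma membrane and vacuole. They are PMA1 (YGL008C) and PMA2 (YPL036W) for the plasma membrane H+-ATPase, and VPH1 (YOR270C), STV1 (YMR054W), VMA1 (YDL185W), VMA2 (YBR127C), VMA3 (YEL027W), VMA4 (YOR332W), VMA5 (YKL080W) and VMA8 (YEL051W) for the vacuolar H+-ATPase, or V-ATPase. They were chosen by name, not by a threshold on their values, and make up 10 of the 6572 features counted in each BY4741 library. RNA was sequenced from 3 libraries of S. cerevisiae BY4741, a haploid laboratory strain, taken after 6 h in a medium that the labels call ILM without spelling the name out. The labels place these cells in mid-exponential phase and name no other treatment. The series also holds 3 libraries of the probiotic strain Biocodex in the same medium, whose 5482 feature identifiers share 0 names with those of BY4741, so the proton pump genes could not be looked up in that strain. All values below come from BY4741 replicates 1, 2 and 3, which held 18707708, 5181546 and 4581414 counted reads. The labels do not say whether these came from separate cultures, so the spread between them may be technical. Genes deleted in BY4741 check the strain label: LEU2, URA3 and MET17 had 0 reads in each library. The exact 95% Poisson interval of 0 reads ends at 0.197, 0.712 and 0.805 CPM (reads per 1000000 counted reads) in replicates 1, 2 and 3. Genes of the mating type of BY4741, a, were read, with MFA1 at 1298 ± 82.7, MFA2 at 1224 ± 213 and STE2 at 50.8 ± 14.1 CPM per kb of coding length (SD, n = 3 each).

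Pma1 is a single-subunit P-type ATPase, which forms a phosphorylated aspartate in each cycle and pumps protons out of the cell. The gradient it makes drives the uptake of many nutrients, and it is known as one of the most abundant proteins of the plasma membrane. Pma2 is a close relative that is not essential. The V-ATPase is a rotary enzyme that acidifies the vacuole, the Golgi and endosomes. Its V1 sector on the cytosolic side splits ATP, its Vo sector in the membrane carries the protons, and the sectors are known to come apart reversibly when glucose is withdrawn.

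PMA1 and PMA2 are the only members that share stretches of 50 coding bases with another gene, so their sequences are shown first. They lie on chromosomes VII and XVI, and their products of 918 and 947 residues are identical at 90.0% of 916 aligned residues. Their coding bases are identical at 81.8% over the aligned codons. The codons around the phosphorylated aspartate are shown because this is the site that defines the enzyme family. Capitals mark the 15 bases that differ in 75, and positions are counted from 1 at the start codon (PMA1 1105 to 1179, PMA2 1192 to 1266).
PMA1 phosphorylation site: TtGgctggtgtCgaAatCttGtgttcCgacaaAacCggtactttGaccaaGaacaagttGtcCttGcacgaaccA
PMA2 phosphorylation site: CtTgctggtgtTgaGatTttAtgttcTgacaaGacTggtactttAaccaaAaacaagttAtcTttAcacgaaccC
The last 30 codons before the stop encode the regulatory tail, and 12 of their 90 bases differ, again in capitals.
PMA1 tail: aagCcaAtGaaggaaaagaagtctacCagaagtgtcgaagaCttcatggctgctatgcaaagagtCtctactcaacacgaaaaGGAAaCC
PMA2 tail: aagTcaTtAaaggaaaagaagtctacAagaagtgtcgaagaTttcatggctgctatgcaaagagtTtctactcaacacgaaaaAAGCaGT
The longest stretch that both genes hold without a difference is 74 bases long, at PMA1 bases 2245 to 2318 and PMA2 bases 2332 to 2405.
Shared run: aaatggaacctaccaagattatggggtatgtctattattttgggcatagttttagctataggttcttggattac
Of the 50-base words of PMA1, 1.40% also occur in PMA2, and of its 25-base words 5.93%. Of the 75-base words of PMA1, 0% occur in PMA2. The read length is not given in the sources used here, and only reads that lie wholly within a shared stretch cannot be told apart. The other 8 members share 0% of their 50-base words with any other coding sequence.

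VMA1 is shown for another reason. Its gene encodes an intein, a stretch that is cut out of the protein after translation, so it is present in the mRNA and in the reads. The intein takes 1362 of the 3216 coding bases, or 42.4%. Its bases are in capitals at both borders (coding bases 829 to 870 and 2191 to 2232).
Intein start: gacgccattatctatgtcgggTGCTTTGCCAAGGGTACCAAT
Intein end: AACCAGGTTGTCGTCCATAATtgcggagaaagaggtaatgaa
The level of VMA1 below is scaled by its whole coding length, intein included.

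The plasma membrane pump was read mainly from PMA1. Levels of different genes are compared as CPM divided by the coding length in kb, called the length-scaled level here. The length-scaled level of PMA1 was 186, 324 and 346 in replicates 1, 2 and 3, or 285 ± 86.4 (SD, n = 3), on 9616, 4625 and 4371 reads. Replicate 1 was the low library, and replicates 2 and 3 were close. In bulk RNA of a culture, fewer cells that express a gene and less RNA per cell cannot be told apart.

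PMA2, the minor isoform, stood at length-scaled levels of 85.5, 77.4 and 83.3, or 82.1 ± 4.18 (SD, n = 3). Its libraries were close to each other and lay below each PMA1 library. PMA1 exceeded PMA2 by 2.18-fold, 4.18-fold and 4.15-fold in replicates 1, 2 and 3, a log2 ratio of 1.75 ± 0.54 (SD, n = 3). The direction was the same in 3 of 3 libraries (exact two-sided sign-flip permutation p = 0.25, which is the smallest p that 3 libraries can give; adjusted p = 0.25, Benjamini-Hochberg over 5 ratios). The size of the ratio followed PMA1, since PMA2 changed little between libraries.

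In the V1 sector, the gene of the peripheral stalk subunit E stood highest and that of the subunit C lowest. VMA4, for subunit E, had length-scaled levels of 1046, 1047 and 808 in replicates 1, 2 and 3, or 967 ± 138 (SD, n = 3). Replicate 3 was its low library.

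VMA2 encodes subunit B, which forms the ring of V1 together with the catalytic subunit A. Its length-scaled levels were 449, 453 and 453, or 451 ± 2.36 (SD, n = 3), so the libraries were nearly equal. VMA1, for the catalytic subunit A, stood at 178, 209 and 173, or 187 ± 19.2 (SD, n = 3), below VMA2 in each library.

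VMA1 and VMA2 make subunits that the complex holds in equal number, but VMA2 exceeded VMA1 in length-scaled level by 2.42-fold. The log2 ratio of VMA1 over VMA2 was -1.28 ± 0.14 (SD, n = 3), with the same direction in 3 of 3 libraries (exact sign-flip permutation p = 0.25, adjusted p = 0.25). In reads without scaling for length the genes were closer, with a log2 ratio of -0.23.

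VMA8, for subunit D of the central rotor, had length-scaled levels of 130.5, 179 and 107, or 139.0 ± 36.7 (SD, n = 3), with replicate 2 high and replicate 3 low. It rested on the fewest reads of the members, with 379 in replicate 3, where 82.7 CPM had an exact 95% Poisson interval from 74.6 to 91.5 CPM, for counting error only. VMA5, for subunit C, which joins V1 to Vo in the assembled enzyme, stood at 101.5, 76.8 and 90.0, or 89.4 ± 12.4 (SD, n = 3).

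In the Vo sector, VMA3, a gene of the proton-carrying ring, stood above VPH1 and STV1, the genes of the arm beside it, by a margin that depends on the scaling for length. The other ring genes, VMA11 and VMA16, lay above VPH1 in mean length-scaled level, at 261 and 215. In mean CPM they lay below it, at 129 and 138 against 262. VMA3, for the ring subunit c, had length-scaled levels of 702, 605 and 923 in replicates 1, 2 and 3, or 743 ± 163 (SD, n = 3), with replicate 3 high. VMA3 exceeded VMA1 by 3.93-fold, a log2 ratio of 1.97 ± 0.44 (SD, n = 3), in 3 of 3 libraries (exact sign-flip permutation p = 0.25, adjusted p = 0.25). The direction rests on the scaling: in reads not divided by coding length, VMA1 lay above VMA3 and the log2 ratio was -0.76, because VMA3 spans 483 coding bases and VMA1 3216.

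Subunit a exists in 2 forms that send the pump to different membranes, Vph1 at the vacuole and Stv1 at the Golgi and endosomes. The proteins, of 840 and 890 residues, are identical at 54.2% of aligned residues. VPH1 stood at length-scaled levels of 98.0, 95.8 and 118, or 104.0 ± 12.3 (SD, n = 3). STV1 stood at 43.6, 45.2 and 63.4, or 50.7 ± 11.0 (SD, n = 3).

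In CPM, not divided by length, VMA3 stood at 339, 292 and 446 and VPH1 at 247, 242 and 298 in replicates 1, 2 and 3, much closer than per kb. Replicate 3 was the highest library of both forms of subunit a, and each VPH1 library lay above each STV1 library. The ratio of VPH1 over STV1 was 2.25, 2.12 and 1.86 in replicates 1, 2 and 3, a log2 ratio of 1.05 ± 0.14 (SD, n = 3; exact sign-flip permutation p = 0.25, adjusted p = 0.25). PMA1 lay above VMA1 in 3 of 3 libraries with a log2 ratio of 0.56 ± 0.47 (SD, n = 3; exact sign-flip permutation p = 0.25, adjusted p = 0.25), but in replicate 1 the ratio was only 1.04. In reads not divided by coding length the order turned in replicate 1, with PMA1 at 514 and VMA1 at 574 CPM, and the log2 ratio over the libraries was 0.34 (exact sign-flip permutation p = 0.5).

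**Figure D1:**
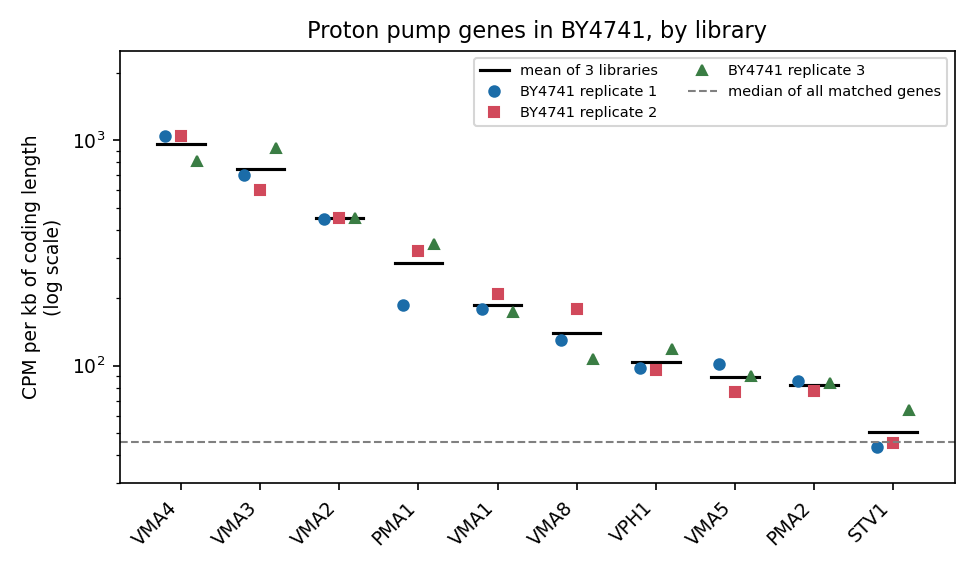
Length-scaled level (CPM per kb of coding length, log axis) of the 10 proton pump genes in BY4741 replicates 1, 2 and 3, with the mean of the libraries as a bar and the median of all matched genes as a dashed line. VMA4, VMA3 and VMA2 stand highest, PMA1 is low in replicate 1 at 186, and STV1 lies near the dashed line at 45.9.

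From the highest to the lowest mean, the order was VMA4, VMA3, VMA2, PMA1, VMA1, VMA8, VPH1, VMA5, PMA2 and STV1. Of the 45 pairs of members, 41 kept their order in each of the 3 libraries and 4 did not. The 4 were neighbours in this order: VMA4 and VMA3, VMA8 and VPH1, VPH1 and VMA5, and VMA5 and PMA2. These neighbours did not differ beyond their spread. The ranges of PMA1 and VMA1, and of VMA1 and VMA8, also overlapped between libraries, although their order within a library was the same in 3 of 3.

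The median length-scaled level of the 10 members was 163, and that of all 5898 features matched to a reference gene was 45.9. Each of the 10 members had a mean above the latter. VMA4 ranked 205, VMA3 278 and VMA2 436 among these genes, and PMA1 684. STV1 ranked 2768, close to the middle. The 10 members together took 0.369%, 0.411% and 0.412% of the reads in replicates 1, 2 and 3. PMA1 and PMA2 took 0.0757%, 0.111% and 0.119%, and the 8 V-ATPase members took 0.293%, 0.299% and 0.293%. The difference between replicate 1 and the others in the whole family was thus on the side of PMA1. PMA2 was not low in replicate 1, at 243, 220 and 237 CPM in replicates 1, 2 and 3.

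The remaining subunits of the V-ATPase filled the same range. The 7 further subunit genes had a median length-scaled level of 261 and 7 of 7 lay above the median of all genes. VMA10, for the stalk subunit G, was highest at 723 ± 47.6, and VMA6, for the Vo subunit d, lowest at 134 ± 18.1 (SD, n = 3 each). VMA11, whose product sits in the ring beside that of VMA3 and is identical to it at 57.1% of aligned residues, stood at 261 ± 36.6 (SD, n = 3). Together, the 15 subunit genes took 0.424%, 0.431% and 0.422% of the reads.

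Per kb of coding length, most subunits present in several copies per complex had higher levels than subunits present once, with VMA1 as the exception. In reads not scaled for length, VMA1 was no exception, as given below. As background from the known structure, subunits A, B, E and G of V1 and the ring subunit c are held in several copies, and the others in a single copy. The 5 genes of the first kind had a median length-scaled level of 723, and the 10 genes of the second kind one of 177. By their means, VMA4, VMA3, VMA10 and VMA2 each lay above 10 of 10 single-copy genes, the highest of which was VMA9, for subunit e, at 350.5 ± 99.4 (SD, n = 3). VMA1 lay above 5 of the 10. From VMA4 to STV1, the levels within the complex spanned 19.1-fold.

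Length moved with these levels. The rank correlation of coding length with the length-scaled level was -0.56 over the 15 genes, which share their libraries, and the coding length counted may differ from the length that reads cover. In CPM, not scaled for length, it was 0.46, and the medians were 601 CPM for the 5 several-copy genes and 132 CPM for the 10 single-copy genes. VMA10, of 345 coding bases, was lowest of the 5 at 249 CPM. It and VMA3, at 359 CPM, lay below the single-copy gene VMA13 at 485 CPM, the highest of its kind. VMA1, at 601 CPM, lay above 10 of 10 single-copy genes on this scale, so which genes stand out depends on the scaling. The part of length in the order was not tested. The grouping by copies was made with the levels known and carries no test.

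**Figure D2:**
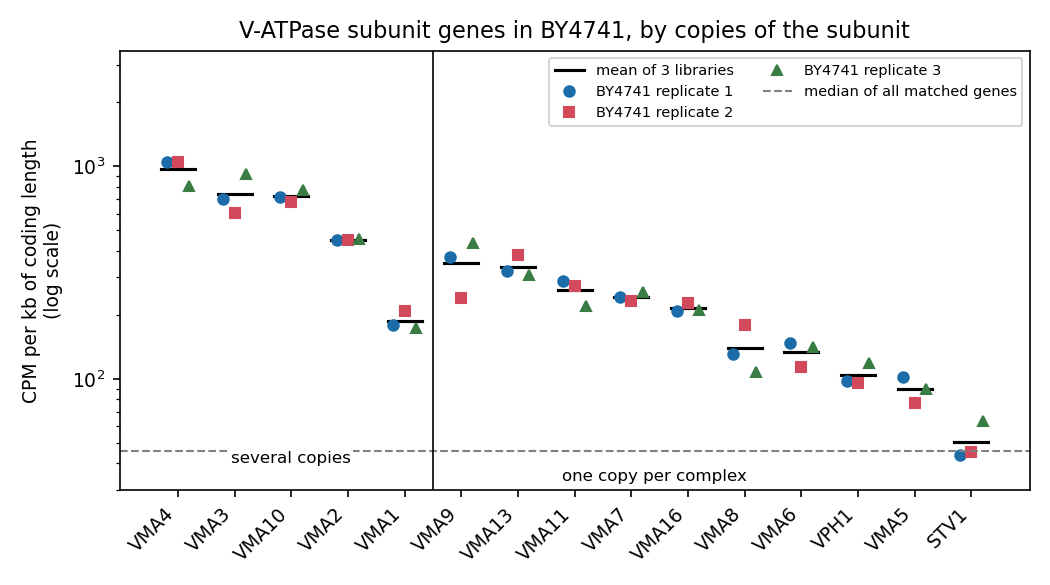
Length-scaled level (CPM per kb of coding length, log axis) of the 15 V-ATPase subunit genes in each BY4741 library, with the mean as a bar, split by whether the complex holds several copies or a single copy of the subunit. The 4 genes VMA4, VMA3, VMA10 and VMA2 stand above each single-copy gene by their means, and VMA1 at 187 does not.

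The 5 assembly factors of the endoplasmic reticulum, which help build the Vo sector, had a median length-scaled level of 64.2, against 244 for the 15 subunit genes, and 4 of 5 lay above the median of all genes. The levels overlapped: VMA22, the highest factor at 123 ± 29.2 (SD, n = 3), lay above the means of VPH1, VMA5 and STV1, and the difference was not tested. VPH2 was lowest, at 5.77, 18.5 and 10.8 in replicates 1, 2 and 3, on 70, 62 and 32 reads, and differed by 3.20-fold between libraries. Of the genes for the RAVE complex, which rejoins V1 and Vo, and for their dissociation, RAV1 was lowest at 19.6 ± 4.34 and SKP1, which also serves in ubiquitin ligases, highest at 887 ± 57.4 (SD, n = 3 each).

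Genes that act on Pma1 stood between these levels. The 7 genes of its proteolipids, kinases and maturation had a median length-scaled level of 76.4, with 6 of 7 above the median of all genes. PMP1, a small proteolipid that regulates the pump, was highest at 296, 574 and 323 in replicates 1, 2 and 3, and AST1, known for sending Pma1 to the cell surface, lowest at 23.7, 12.4 and 33.8. PMP1 was high in replicate 2 alone, unlike PMA1. PMP2, the relative of PMP1, rested on 119, 22 and 90 reads.

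Of the regulators known to act on the PMA1 promoter, RAP1 had length-scaled levels of 21.0, 45.3 and 65.6 and GCR1 64.4, 93.3 and 48.7 in replicates 1, 2 and 3. RAP1 was lowest in replicate 1, as PMA1 was, and GCR1 was lowest in replicate 3. The part of either in the level of PMA1 was not tested.

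Among P-type ATPases, PMA1 stood first of 16 genes in each of the 3 libraries. The other 14 genes, most of which move calcium, sodium, copper, cadmium, other ions or lipids, had a median length-scaled level of 25.6. Of these, 5 of 14 lay above the median of all genes. The sodium pump gene ENA1 was next by mean at 140 ± 12.9, and the lipid flippase gene DRS2 lowest at 11.7 ± 2.28 (SD, n = 3 each). ENA1 shares 88.5% of its 50-base words with other genes, so its count is uncertain. PMA2 ranked 3 in replicate 1 and 4 in replicates 2 and 3. It changed place with ENA2, at 80.4, 82.0 and 95.7 in replicates 1, 2 and 3. ENA2 shares 100% of its 50-base words with other genes, so this change of place is uncertain too.

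Genes of other ion transport and of the related ATP synthase spread over a wide range. The 7 antiporters of vacuole, endosome and Golgi had a median length-scaled level of 50.3, from GDT1 at 25.8 ± 18.8 to the vacuolar calcium exchanger gene VCX1 at 140 ± 23.3 (SD, n = 3 each). GDT1 rested on 702, 30 and 100 reads and differed by 6.48-fold between libraries. The 5 genes of potassium and sodium transport at the plasma membrane had a median of 56.4, with the potassium transporter gene TRK1 lowest at 34.2 ± 6.64 and PMP3, a small membrane protein gene, highest at 1427 ± 17.0 (SD, n = 3 each). In the F1 sector of mitochondrial ATP synthase, the rotary relative of V1, 5 genes had a median of 260, from ATP3 at 140 ± 28.7 to ATP15 at 397 ± 143 (SD, n = 3 each).

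Spread between libraries was compared with that of all features. Between the highest and the lowest library, 0 of 10 members differed by over 2-fold in CPM, and 0 of the 7 further V-ATPase subunit genes did. Of all 5131 features whose mean reached 10 CPM, 25.7% did. Spread falls with abundance, and of the 1738 features between the lowest and the highest member (105 to 787 CPM), 6.96% differed by over 2-fold. At that background, 0 of 10 does not set the members apart. All 10 members passed the minimum in each library. Their median ratio of highest to lowest library was 1.31, against 1.36 for the features of the same range.

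VMA2 and PMA1 were the ends of this range. VMA2 stood at 697, 703 and 704 CPM in replicates 1, 2 and 3, a coefficient of variation of 0.522%, and ranked 6 from the lowest of 5131 features. Its chi-square per degree of freedom over the libraries was 0.181, where counting error alone gives about 1. With TMM effective library sizes its highest library exceeded its lowest by 1.037-fold, against 1.0097-fold with library totals. PMA2 followed with 243, 220 and 237 CPM, a coefficient of variation of 5.09% and a chi-square per degree of freedom of 4.50.

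PMA1 stood at 514, 893 and 954 CPM, so that replicate 3 exceeded replicate 1 by 1.86-fold and replicate 2 exceeded it by 1.74-fold. Its chi-square per degree of freedom was 822. It was the 1 member of 10 that lay over 1.5-fold below both other libraries in replicate 1, against 4.72% of the 5131 features. These features were not limited to the CPM range of the members, and the 1.5-fold threshold was added after seeing the data. At that share, 1 of 10 does not set the members apart. The coefficient of variation of PMA1 was 30.3%, at the 66.5 percentile of the 5131 features. This percentile was not limited to the CPM range of the members either, so it does not show how PMA1 compares with genes of like level. Features within that range had a median ratio of highest to lowest library of 1.36, below the 1.86 of PMA1. With TMM effective library sizes the ratios of replicates 3 and 2 to replicate 1 were 1.77 and 1.71. Replicate 1 is also the deepest library, and the part of depth in its PMA1 level was not tested.

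The other members deviated in different libraries. As log2 of CPM in a library minus the mean of the other 2, VMA3 and STV1 were high in replicate 3, by 0.50 and 0.51, and VMA4 and VMA8 were low there, at -0.37 and -0.51. VMA8 was high in replicate 2, by 0.60, and VMA3 and VMA5 were low in it, at -0.41 and -0.32. Within V1, members went in opposite directions in replicate 2. The Vo members VMA3, VPH1 and STV1 had the same sign in each library, at -0.09, -0.12 and -0.30 in replicate 1, -0.41, -0.17 and -0.22 in replicate 2, and 0.50, 0.29 and 0.51 in replicate 3. The other Vo genes, VMA6, VMA9, VMA11 and VMA16, did not have this pattern of signs. In replicates 1, 2 and 3, VMA6 was at 0.22, -0.35 and 0.13, and VMA11 at 0.23, 0.12 and -0.36. The deviations of a gene in the 3 libraries are not independent of each other. The geometric mean of the 8 V-ATPase members was 207, 208 and 213 in length-scaled level.

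**Figure D3:**
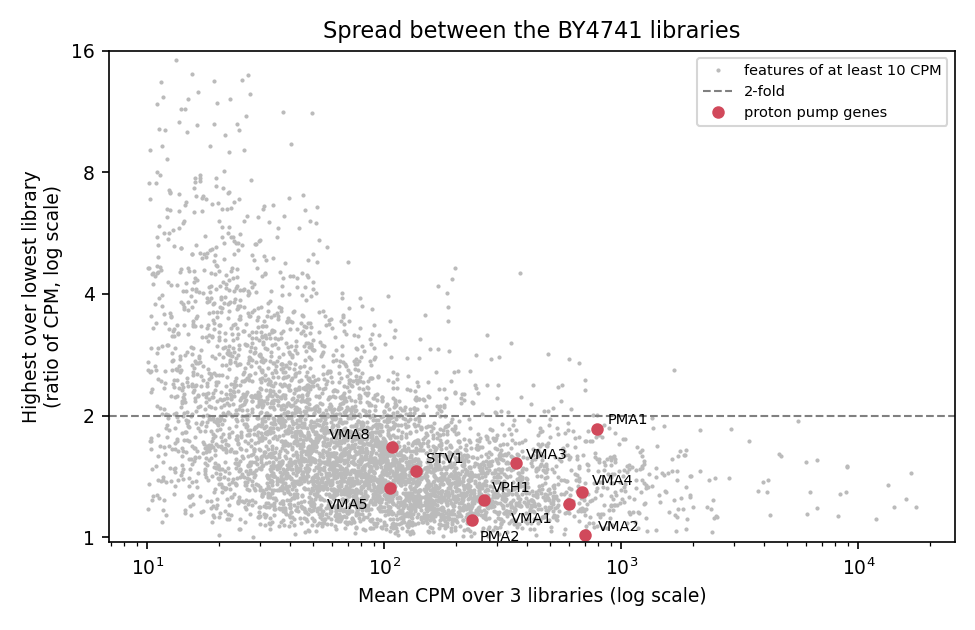
Ratio of the highest to the lowest BY4741 library in CPM (log axis) against mean CPM over 3 libraries (log axis), for features of at least 10 CPM (grey) and the 10 proton pump genes (red); 46 features above 16-fold or with 0 reads in a library are not drawn. The 10 genes lie below the dashed 2-fold line, with PMA1 highest at 1.86 and VMA2 lowest at 1.01.

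The genes nearest to PMA1 in level were sought over the same 3 libraries, as the root mean square difference of log2 length-scaled level among 5069 genes. The 5 nearest were CTS1 (0.07), TRX1 (0.08), IZH4 (0.16), COX19 (0.18) and GID8 (0.22). CTS1, for a chitinase that separates daughter cells, stood at 202, 325 and 338 and TRX1, for a thioredoxin, at 201, 332 and 366 in replicates 1, 2 and 3. Both were low in replicate 1. For the mean profile of the 8 V-ATPase members, the nearest were YIP5, PRS1, AAC1, CNB1 and VMA16, at differences of 0.04, 0.05, 0.05, 0.07 and 0.07. VMA16, for the second minor subunit of the ring, stood at 209, 227 and 210. With 3 libraries, many genes lie close to any profile, and nearness shows a like level only.

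PMA1 had the coding sequence most like that of ribosomal protein genes. The codon adaptation index, which is 1 where each codon is the one most used in a reference set, here 132 ribosomal protein genes, was 0.777 for PMA1, at the 98.2 percentile of all matched genes. It was 0.642 for VMA3 and 0.455 for VMA2. PMA2 had 0.363, at the 91.1 percentile, and STV1, the lowest, 0.215, at the 65.9 percentile. The median over the 5325 matched genes with reads in each library was 0.194, so each member lay above it. At the phosphorylation site shown above, 14 of the 15 bases that differ between PMA1 and PMA2 lie at the last position of a codon.

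Across the 10 members, the index and log2 of the mean length-scaled level had a Pearson r of 0.51 and a Spearman rho of 0.55. Over the 5325 matched genes with reads in each library, the values were 0.48 and 0.27. These are a description over genes of the same libraries, which are not independent replicates. VMA4, the highest member, had an index of 0.320, and PMA1, with the highest index, ranked 4 of 10 in level. None of the 10 genes has more than 1 coding part in the reference, and their GC content ran from 38.4% for VMA5 to 43.6% for PMA2.

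**Figure D4:**
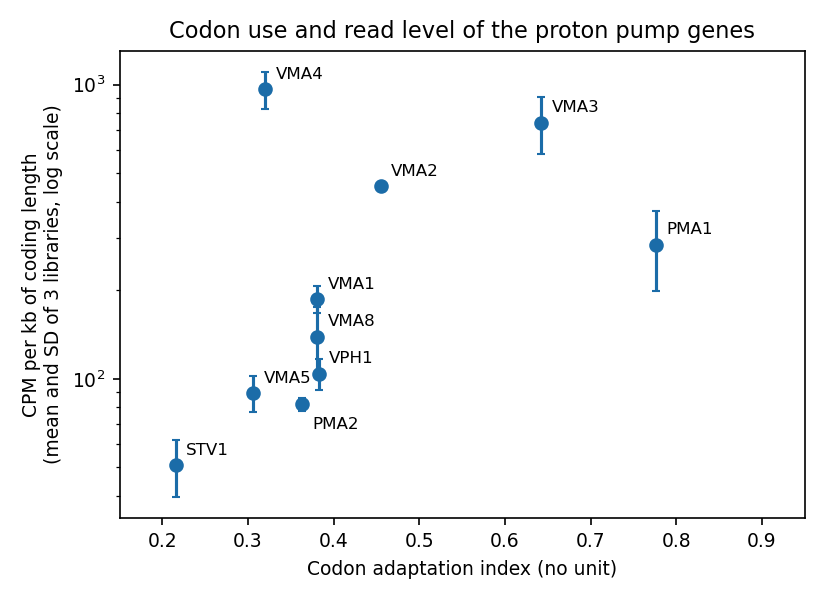
Mean length-scaled level with SD over 3 BY4741 libraries (CPM per kb of coding length, log axis) against the codon adaptation index (no unit) of the 10 proton pump genes. PMA1 lies farthest right at 0.777, and VMA4 lies highest at 967 with an index of 0.320.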

How the data were processed

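RNA was isolated with a yeast RiboPure kit and libraries were made with a NuGEN mRNA kit, per the labels' protocols. Each library has 1 deposited table, in which the authors give raw read counts of features as whole numbers, not normalized. FastQC, TopHat, HTSeq and DESeq2 are named in the submitters' processing notes. Settings, genome build, annotation and strandedness are not stated there, so antisense reads may be counted on a gene. No coordinates are therefore reported.

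Identifiers are systematic names. Of 6572 features, 5898 matched the RefSeq gene table of S288C assembly R64, which gave symbols, coding lengths and the printed sequences (by gene name, coding strand), and 674 did not. No coding sequence of this reference overlaps a member. Unmatched features next to a member in numbering had at most 54 reads. Whether an unmatched feature overlaps a member was not checked, and how reads on such an overlap were counted is not stated.

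Counts were divided by library totals to CPM, and by coding length. No contrast between groups was made. Ratios were tested within libraries by exact sign flips, and 5 were tested. The members, gene lists and tests were chosen with earlier results of these data known. Named were all members, the highest and lowest gene of each list, and the 5 genes nearest in level. PMP2, VMA9, VMA11, VMA13 and ENA2 were named after their values were seen. Alternatives used edgeR 4.0.16 TMM factors, DESeq2 1.42.0 size factors, thinning, length, offsets and leaving out single libraries. The work used R 4.3.3, Python 3.11.15, SciPy 1.17.1 and Biopython 1.88. Intervals cover counting error only.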

Additional observations from a re-analysis of the deposited data

How the results depend on the processing

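With 5 ratios, the share of reads and the median member level (310.7 CPM), 1 direction turned: the log2 ratio of VMA3 over VMA1 was -0.76 in reads not divided by coding length. Leaving out each library moved the log2 ratios within 1.59 to 2.06 for PMA1 over PMA2, 0.99 to 1.13 for VPH1 over STV1, 0.35 to 0.81 for PMA1 over VMA1, -1.36 to -1.22 for VMA1 over VMA2 and 1.76 to 2.19 for VMA3 over VMA1. The share of reads ran from 0.390% to 0.411% and the median level from 280.0 to 332 CPM. No member passed 2-fold between libraries under TMM, DESeq2 size factors, thinning or the omission of a library. At 1.5-fold, a threshold added after seeing the data, 3 of 10 did (PMA1, VMA3 and VMA8), against 53.9% of features. This share was not limited to the CPM range of the members, so it does not show that the members spread less than genes of like level. The background share of 25.7% was 35.6% with no minimum, and 10.8% to 18.0% with a library left out, where 2 libraries are compared in place of 3. No paired analysis was possible because only 1 group enters the comparisons. The smallest member count, 379 reads, limits VMA8 in replicate 3.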
